A study of Mus musculus with 4 samples.

Results

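8 acute phase genes were read in the tumors: the serum amyloid A genes Saa1, Saa2 and Saa3, haptoglobin (Hp), lipocalin 2 (Lcn2), Slpi, Serpina3n and lipopolysaccharide binding protein (Lbp). They were taken by symbol from the 32285 genes of the count tables, as a set named with earlier results of these data known. 4 droplet libraries, 1 per condition, came from pancreatic tumors of obese male C57BL/6 mice on a high-fat diet that carried orthotopic grafts of KPC cells, a mouse pancreatic cancer line. Pdgfrb-TK mice, in which the Pdgfrb promoter drives a thymidine kinase that makes ganciclovir (GCV) toxic to the cells expressing it, received GCV (Pdgfrb-TK/GCV) or PBS (Pdgfrb-TK/PBS). Wild-type mice received D-CAN, a peptide made to kill stromal cells of adipose origin and CAFs like them, or PBS (WT/PBS). The labels give an age of 7 months for all groups, which differs from the age in the study's methods, and their extraction text describes nuclei of another tissue. The titles were used to assign the libraries. Suspensions of several tumors were pooled before capture, so the spread between animals was not measured and no difference between conditions could be tested. All intervals below are at 95% and cover counting error only.

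Acute phase proteins are made in large amounts during inflammation, mostly by the liver, when IL6-type cytokines act through STAT3 and C/EBP factors and IL1 or TNF acts through NF-κB. Saa1 and Saa2 are the circulating serum amyloids, while Saa3 is the form made outside the liver by macrophages, fibroblasts and fat tissue. Lcn2 binds the iron carriers of bacteria and is stored in neutrophil granules, and Slpi inhibits neutrophil elastase and cathepsin G. Hp captures free haemoglobin, Serpina3n is a secreted serine protease inhibitor, and Lbp passes lipopolysaccharide to CD14 and TLR4.

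The sequence just upstream of the start was taken from RefSeq (GRCm38.p6) for Saa3, Lcn2 and Slpi and for Serpina3n, the member most limited to fibroblasts. It is printed to show the letters that lie upstream of genes that inflammation induces together. RefSeq windows were matched for 6 of the 8 members, all but Hp and Lbp. Motifs were searched on both strands in the 250 bases before the start, and the same search was run over 32851 such windows. A C/EBP-type motif, TTGCNNAA, was present in the windows of 5 members (Saa1, Saa2, Saa3, Lcn2 and Slpi) and in 9.56% of all windows. Saa1 and Saa2, whose transcripts are 94.4% identical, had the same match, TTGCACAA, so they are not separate cases. An NF-κB-type motif (3 G, 2 free bases, 3 T and 2 C) was present in Serpina3n alone among the 6 and in 1.41% of all windows. A STAT-type motif, TTCNNNGAA, was present in 7.02% of all windows and in no member. In the lines that follow, each window runs 5′ to 3′ and ends at the base before the start, and capitals mark the C/EBP-type match, or for Serpina3n the NF-κB-type match. The windows are chr7:46715677-46715926 (minus strand), chr2:32387740-32387989 (minus strand), chr2:164356508-164356757 (minus strand) and chr12:104406458-104406707 (plus strand).
Saa3: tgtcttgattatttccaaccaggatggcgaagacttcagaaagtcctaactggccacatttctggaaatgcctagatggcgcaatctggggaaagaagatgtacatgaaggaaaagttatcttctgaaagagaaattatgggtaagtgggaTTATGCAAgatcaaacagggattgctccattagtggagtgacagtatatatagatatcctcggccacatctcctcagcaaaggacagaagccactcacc
Lcn2: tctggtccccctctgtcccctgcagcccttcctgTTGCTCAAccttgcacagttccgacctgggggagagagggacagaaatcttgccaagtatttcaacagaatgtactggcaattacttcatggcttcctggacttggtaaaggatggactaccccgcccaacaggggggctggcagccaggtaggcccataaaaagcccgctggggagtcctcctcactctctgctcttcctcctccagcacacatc
Slpi: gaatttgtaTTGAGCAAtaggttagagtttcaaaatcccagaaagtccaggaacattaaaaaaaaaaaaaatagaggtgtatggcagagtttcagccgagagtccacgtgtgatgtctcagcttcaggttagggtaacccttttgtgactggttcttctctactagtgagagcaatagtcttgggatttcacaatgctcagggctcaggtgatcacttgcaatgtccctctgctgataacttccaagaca
Serpina3n: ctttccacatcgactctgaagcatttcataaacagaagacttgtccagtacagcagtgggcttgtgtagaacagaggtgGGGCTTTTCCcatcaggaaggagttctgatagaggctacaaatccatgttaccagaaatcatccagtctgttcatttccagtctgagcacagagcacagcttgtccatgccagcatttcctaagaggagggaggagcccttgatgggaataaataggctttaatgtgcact
The match began 99 bases before the start in Saa3, 216 in Lcn2 and 241 in Slpi, and 171 in Serpina3n. A match describes letters only and shows no binding. The windows of Slpi and Lcn2 lie inside longer GENCODE gene models that start further upstream. The Slpi gene model also holds Mir7678, while the other 7 members overlap no other gene. Saa1, Saa2 and Saa3 lie close together on chromosome 7.

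After removal of cells with under 200 genes, the libraries held 10178 to 12280 cells with a median of 4514.5 to 7421 unique molecular identifiers (UMIs) per cell, and pairs of libraries shared 26 to 42 cell barcodes. Cells were assigned to a class when at least 3 of its markers had a UMI and no other class came close, which placed 69.5% to 81.8% of the cells of a library. Cells with more than 20% mitochondrial UMIs made up 29.3% of D-CAN and 18.2% of WT/PBS, but 4.48% of Pdgfrb-TK/GCV and 8.42% of Pdgfrb-TK/PBS. The carcinoma-associated fibroblasts (CAFs) numbered 240 with GCV against 452 in Pdgfrb-TK/PBS and 1188 with D-CAN against 1865 in WT/PBS. Their Pdgfrb level was 58.9 CPM (counts per 1000000 UMIs of the class) in Pdgfrb-TK/GCV against 241 in Pdgfrb-TK/PBS, and 252 in D-CAN against 160 in WT/PBS. The 7 hepatocyte markers summed to 8269 to 21160 UMIs per library, most of them Ttr (5316 to 18027) and Apoa1 (2575 to 4327). Alb had 33 to 79 and Fgb 0 to 26. Cells classed as KPC tumor cells held 7693 of the 8269 UMIs in Pdgfrb-TK/GCV and 19772 of 21160 in Pdgfrb-TK/PBS. They held 18443 of 21126 in D-CAN and 13432 of 16247 in WT/PBS, and CAFs held 11 to 404. The 6 fat cell markers summed to 39.2 CPM of all cells in WT/PBS and 12.5 to 26.7 in the other libraries. Of these, Adipoq and Cfd had 111 and 4163 UMIs in WT/PBS and at most 6 and 5 in any other library, whereas Cidec had 10.5 CPM in WT/PBS and 11.9 to 26.5 in the others. The part of either cell type in the results was not tested.

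Among classes of at least 20 cells, CAFs carried the highest Saa3 levels in 3 of the 4 libraries, and in WT/PBS macrophages and neutrophils stood above them. In CAFs, Saa3 stood at 5478 CPM (5392 to 5565) with GCV against 1723 (1671 to 1776) in Pdgfrb-TK/PBS and 818 (802 to 835) with D-CAN against 168 (162 to 174) in WT/PBS. Each treated library was thus higher than its own PBS library, by 3.18 times (3.07 to 3.29) with GCV and 4.87 times (4.68 to 5.07) with D-CAN. The 2 PBS libraries differed more than either pair, with Pdgfrb-TK/PBS at 10.3 times WT/PBS, and D-CAN was at 0.475 times Pdgfrb-TK/PBS. After each cell was thinned to 2000 UMIs, 53.8% of CAFs had a Saa3 UMI with GCV against 30.7% in Pdgfrb-TK/PBS, and 22.0% with D-CAN against 6.50% in WT/PBS. Without thinning these shares were 63.3%, 33.4%, 26.5% and 11.6%. In T cells, which served as the measure of free RNA, the thinned share was 16.1% of 62 cells in Pdgfrb-TK/GCV, and 1.06% of 472 with D-CAN against 3.70% of 27 in WT/PBS. The median depth of CAFs was 10513.5, 4625, 7613 and 9629 UMIs in the order of the libraries, and that of T cells 2652, 1542.5, 3778 and 2926.

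**Figure D1:**
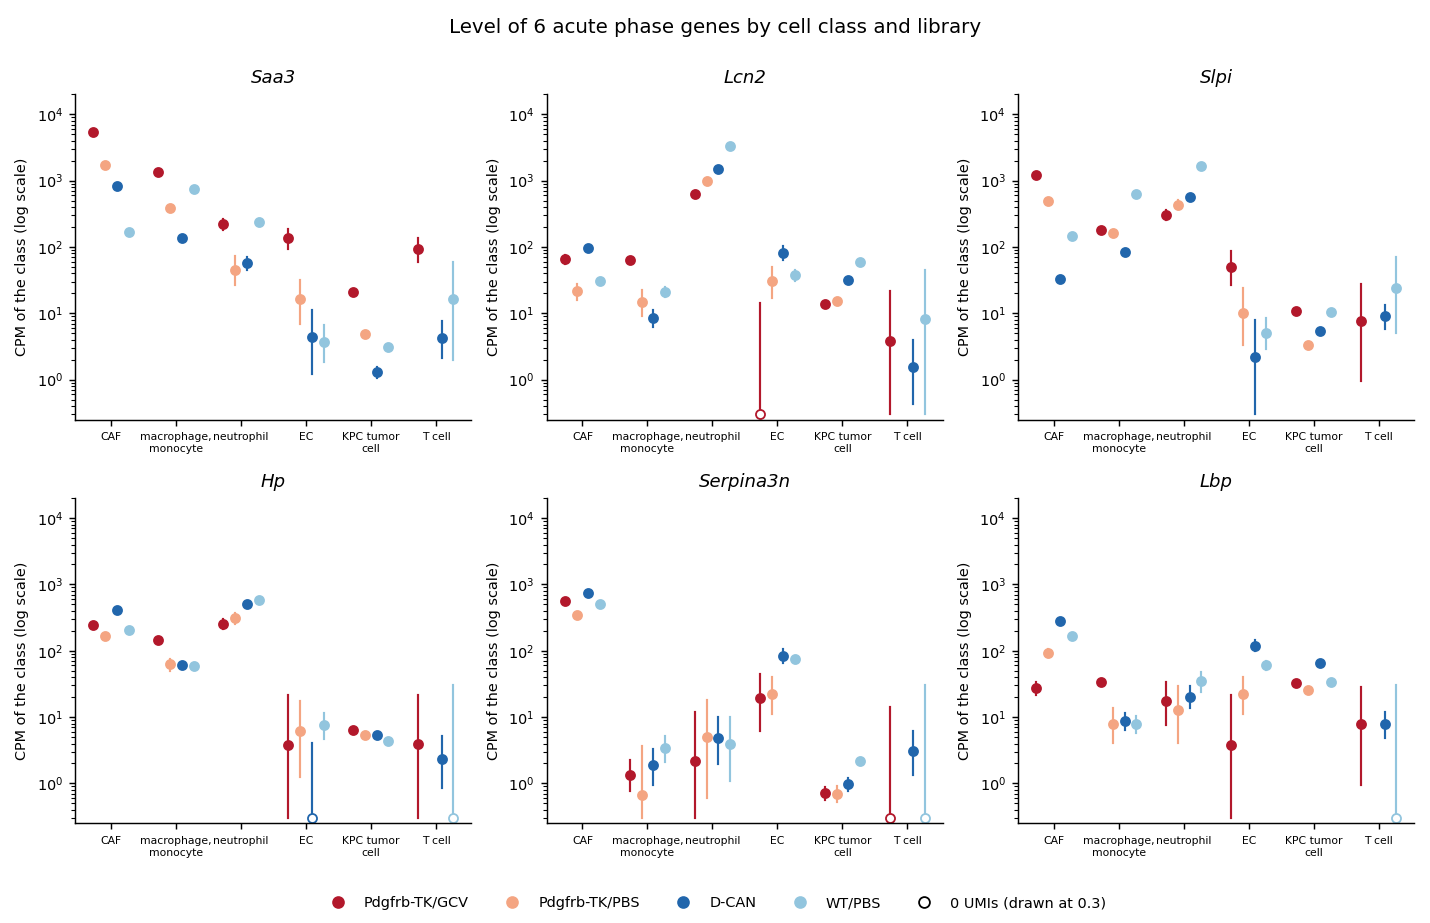
Level of 6 acute phase genes (CPM of the class, log scale) by cell class and library, with exact Poisson intervals at 95%. Classes with under 20 cells in a library are left out and open circles mark classes with 0 UMIs. Saa3 in CAFs runs from 168 CPM in WT/PBS to 5478 CPM in Pdgfrb-TK/GCV, and Lcn2 is highest in neutrophils in all 4 libraries.

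Macrophages and monocytes, which clear debris and present antigen, showed the opposite order in the wild-type pair. Their Saa3 level was 1342 CPM with GCV against 388 in Pdgfrb-TK/PBS and 136 with D-CAN against 737 in WT/PBS. GCV was 3.45 times (3.18 to 3.76) its PBS library, while D-CAN was 0.185 times (0.171 to 0.200) its own. Saa3 in these cells was unevenly spread, since 27 of 1642 cells held 50% of the Saa3 UMIs with GCV against 3 of 474 in Pdgfrb-TK/PBS, and 4 of 951 with D-CAN against 14 of 830 in WT/PBS. These cells had a median of 8 to 8.5 of the 11 macrophage markers and 0 to 2 of the 10 CAF markers. Without the 5 cells richest in Saa3 in each library, the ratio was 7.90 with GCV and 0.108 with D-CAN. The 5 cells were a larger share of the 474 cells of Pdgfrb-TK/PBS than of the 1642 with GCV, so this GCV ratio is uneven. The summed CAF markers in the macrophage class were 57.6 CPM in Pdgfrb-TK/GCV (10 of 10 markers with a UMI), 107 in Pdgfrb-TK/PBS (9 of 10, Pdgfra at 0), 164 in D-CAN (10 of 10) and 238 in WT/PBS (10 of 10), and their part in the Saa3 level was not tested.

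Neutrophils stood at 221 CPM with GCV against 45.5 in Pdgfrb-TK/PBS and 57.0 with D-CAN against 234 in WT/PBS, giving 4.86 times (2.93 to 8.53) with GCV and 0.243 times (0.186 to 0.314) with D-CAN. The WT/PBS level was above that of CAFs in the same library. The Pdgfrb-TK/PBS level rested on 18 UMIs, and its interval overlapped that of B cells. With GCV, T cells stood at 92.9 CPM, and Pdgfrb-TK/PBS had too few T cells for a level to subtract. The part of free RNA in the GCV ratio was not tested. In WT/PBS, 4 of 361 neutrophils and 9 of 1865 CAFs held 50% of the Saa3 UMIs of their class. A single cell with 41 of the 81 Saa3 UMIs, and 6 macrophage markers, held 50% of them in D-CAN neutrophils, and without the 5 richest cells of each library the ratio was 8.36 with GCV and 0.112 with D-CAN. KPC tumor cells stood at 20.8, 4.80, 1.29 and 3.08 CPM in the same order, or 4.33 times (3.87 to 4.87) and 0.418 times (0.333 to 0.522) the PBS library, and 2.36 and 0.558 times when classes were assigned by whole profile. In the 3 libraries with at least 20 T cells, these tumor cell levels were below those of T cells, which were 92.9 CPM (59.5 to 138) in Pdgfrb-TK/GCV, and 4.30 (2.15 to 7.70) with D-CAN against 16.3 (1.97 to 58.9) in WT/PBS. In CPM they were therefore not above the level of free RNA there. Tumor cells were deeper than T cells, with medians of 11837.5, 19873 and 12784 against 2652, 3778 and 2926 UMIs in these libraries. Free RNA per cell was not compared. The 14 T cells of Pdgfrb-TK/PBS had 0 UMIs, too few cells for a level. Endothelial cells (ECs) had 134 CPM in Pdgfrb-TK/GCV and 16.2 in Pdgfrb-TK/PBS, from 35 and 8 UMIs, of which 27 of the 35 lay in 1 cell. Mesothelial cells, the lining of the abdominal organs, were few but rich in Saa3: 787 UMIs in 16 cells of Pdgfrb-TK/GCV, 603 in 19 cells of Pdgfrb-TK/PBS and 233 in 24 cells of D-CAN, with no such cell in WT/PBS. The D-CAN level was 717 CPM (628 to 815), whose interval overlaps that of CAFs.

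**Figure D2:**
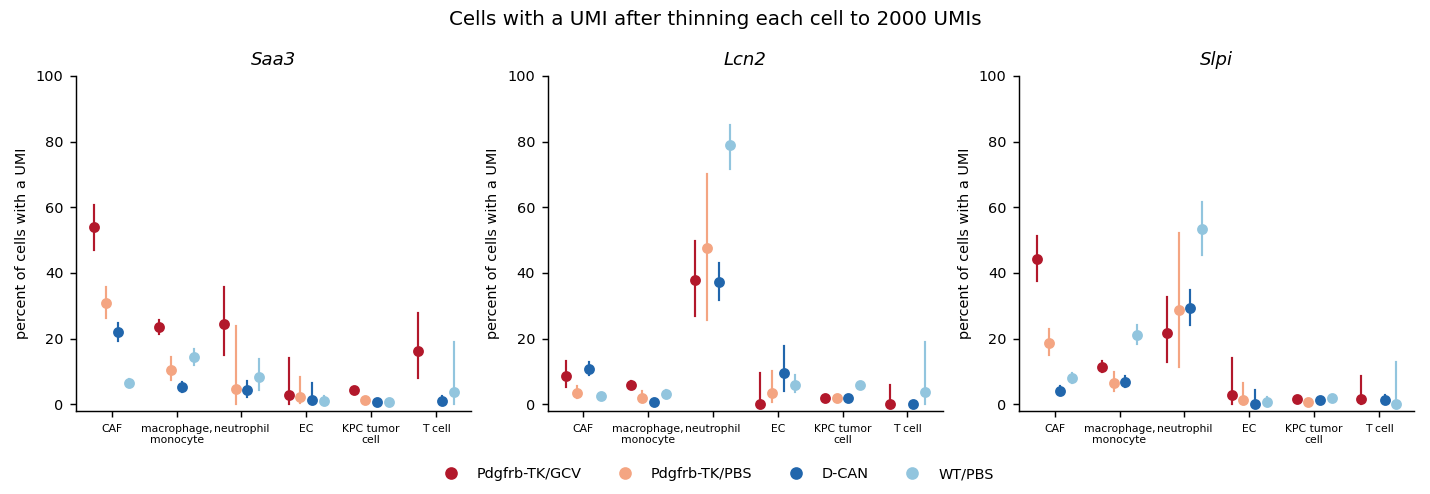
Percent of cells with a UMI of Saa3, Lcn2 or Slpi after each cell was thinned to 2000 UMIs, with exact Clopper-Pearson intervals at 95%, for classes with at least 20 cells of that depth. T cells give the level of free RNA. Saa3 reaches 53.8% of CAFs in Pdgfrb-TK/GCV and Lcn2 79.0% of neutrophils in WT/PBS.

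Slpi was higher after GCV and lower after D-CAN in CAFs. Its CAF level was 1216 CPM with GCV against 500 in Pdgfrb-TK/PBS and 32.8 with D-CAN against 147 in WT/PBS. The ratio to the PBS library was 2.43 (2.28 to 2.60) with GCV and 0.224 (0.200 to 0.249) with D-CAN. Thinned shares followed the same order, at 44.3%, 18.8%, 3.996% and 7.95% of CAFs, against 1.61% of T cells in Pdgfrb-TK/GCV, and 1.27% with D-CAN against 0% in WT/PBS (0 of 27 cells). Without thinning, 57.1%, 23.9%, 7.66% and 15.9% of CAFs had a UMI. In both pairs the direction held without the cells that had a mesothelial marker, at 3.67 with GCV and 0.0988 with D-CAN.

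In leukocytes Slpi was lowest relative to control after D-CAN. Macrophages had 181 CPM in Pdgfrb-TK/GCV and 160 in Pdgfrb-TK/PBS, a ratio of 1.13 whose interval (0.989 to 1.30) includes 1, and 85.1 in D-CAN against 633 in WT/PBS, a ratio of 0.134 (0.122 to 0.148). The GCV value depended on few cells, since 2 of 474 cells held 50% of the Slpi UMIs of Pdgfrb-TK/PBS and the ratio was 4.81 without the 5 richest cells of each library. Those 5 were a larger share of the 474 cells than of the 1642 with GCV. Neutrophils had 306, 432, 568 and 1667 CPM, or 0.707 times (0.562 to 0.889) with GCV and 0.341 times (0.313 to 0.371) with D-CAN. WT/PBS was the highest library in both leukocyte classes, and D-CAN neutrophils were at 1.32 times those of Pdgfrb-TK/PBS. In KPC tumor cells Slpi stood at 3.30 to 10.7 CPM, and T cells had 7.74 to 24.4 CPM in the libraries with at least 20 of them. Mesothelial cells held 637 UMIs in 16 cells, 594 in 19 cells and 1071 in 24 cells (3297 CPM in D-CAN), and in D-CAN this class held 21.7% of the Slpi UMIs of the library. A further 16.6% lay in B cells, where 722 of the 820 UMIs came from 1 cell with 1 mesothelial marker.

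Among classes of at least 20 cells, Lcn2 was highest in neutrophils in every library. Their level was 622 CPM (552 to 698) with GCV against 990 (895 to 1093) in Pdgfrb-TK/PBS and 1493 (1430 to 1558) with D-CAN against 3329 (3218 to 3443) in WT/PBS. Both treated libraries were below their PBS library, at 0.628 times (0.537 to 0.733) with GCV and 0.448 times (0.425 to 0.474) with D-CAN, but D-CAN was 1.51 times Pdgfrb-TK/PBS. Thinned shares were 37.8% of 74 neutrophils, 47.6% of 21, 37.2% of 304 and 79.0% of 157, and the intervals of the first 3 overlap. Unthinned they were 33.1%, 27.2%, 31.9% and 67.6%. Against these, 0.558% to 2.86% of T cells had a Lcn2 UMI unthinned in the 3 libraries with at least 20 T cells.

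CAFs carried less Lcn2, and more of it in both treated libraries: 65.0 CPM in Pdgfrb-TK/GCV against 21.4 in Pdgfrb-TK/PBS, and 97.4 in D-CAN against 31.0 in WT/PBS. The ratios over all CAFs were 3.04 (2.22 to 4.22) and 3.14 (2.84 to 3.47). The first was 6.201 without the cells that had a mesothelial marker. The second was 4.97 without the 5 richest cells and 2.06 with classes by whole profile. With GCV, 6 of 240 CAFs held 50% of their 182 Lcn2 UMIs. Within the inflammatory and myofibroblastic programs set out below, the ratio was 1.51 and 6.22 with GCV and 1.62 and 0.796 with D-CAN. Macrophages had 62.8, 14.6, 8.49 and 20.9 CPM, or 4.30 times (2.82 to 6.91) with GCV and 0.407 times (0.287 to 0.568) with D-CAN, and these rested on 692, 22, 50 and 128 UMIs. A single cell held 50% of the 22 in Pdgfrb-TK/PBS, and without the 5 cells richest in Lcn2 in each library the ratios were 12.7 with GCV and 0.213 with D-CAN. These 5 cells were a larger share of the 474 macrophages of Pdgfrb-TK/PBS than of the 1642 with GCV, so this GCV ratio is uneven. With at least 5 markers per cell the GCV ratio was 12.4, and with the T cell level subtracted the D-CAN ratio was 0.545. The summed neutrophil markers in the macrophage class were 522, 330, 458 and 358 CPM, with 9 of 9 markers present in each library, and their part in the Lcn2 level was not tested. In ECs Lcn2 had 82.3 CPM with D-CAN against 37.2 in WT/PBS, a ratio of 2.21 (1.63 to 3.001), which was 1.69 without the 5 richest cells, and 30.4 in Pdgfrb-TK/PBS. The 46 ECs of Pdgfrb-TK/GCV had 0 UMIs, which allows up to 11.5 CPM.

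KPC tumor cells held 39.6% to 59.5% of the Lcn2 UMIs of a library, being the most numerous class, although their level was 13.9 CPM with GCV against 15.1 in Pdgfrb-TK/PBS and 31.3 with D-CAN against 58.7 in WT/PBS. The ratios were 0.921 (0.8503 to 0.997) and 0.534 (0.510 to 0.559), and D-CAN was 2.07 times Pdgfrb-TK/PBS. The D-CAN ratio passed the 2-fold threshold, at 0.307, without the 5% of cells with most UMIs, and was 0.308 without the 5 cells richest in Lcn2. A few cells carried most of it: 50% of the UMIs lay in 22 of 6936 cells, 37 of 7091, 5 of 3399 and 32 of 5205. The 5 cells of D-CAN had at least 102 Lcn2 UMIs each and a median of 10 of the 11 tumor markers and 0 of the 9 neutrophil markers. Tumor cells with at least 3 mucinous markers, the gastric-type mucus and trefoil genes, had 19.2, 18.4, 32.5 and 105 CPM, against 11.6, 10.4, 30.7 and 32.7 CPM in the other tumor cells. Within the mucinous cells D-CAN was 0.309 times (0.288 to 0.331) WT/PBS, and within the other tumor cells 0.937 times (0.877 to 0.9998).

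**Figure D3:**
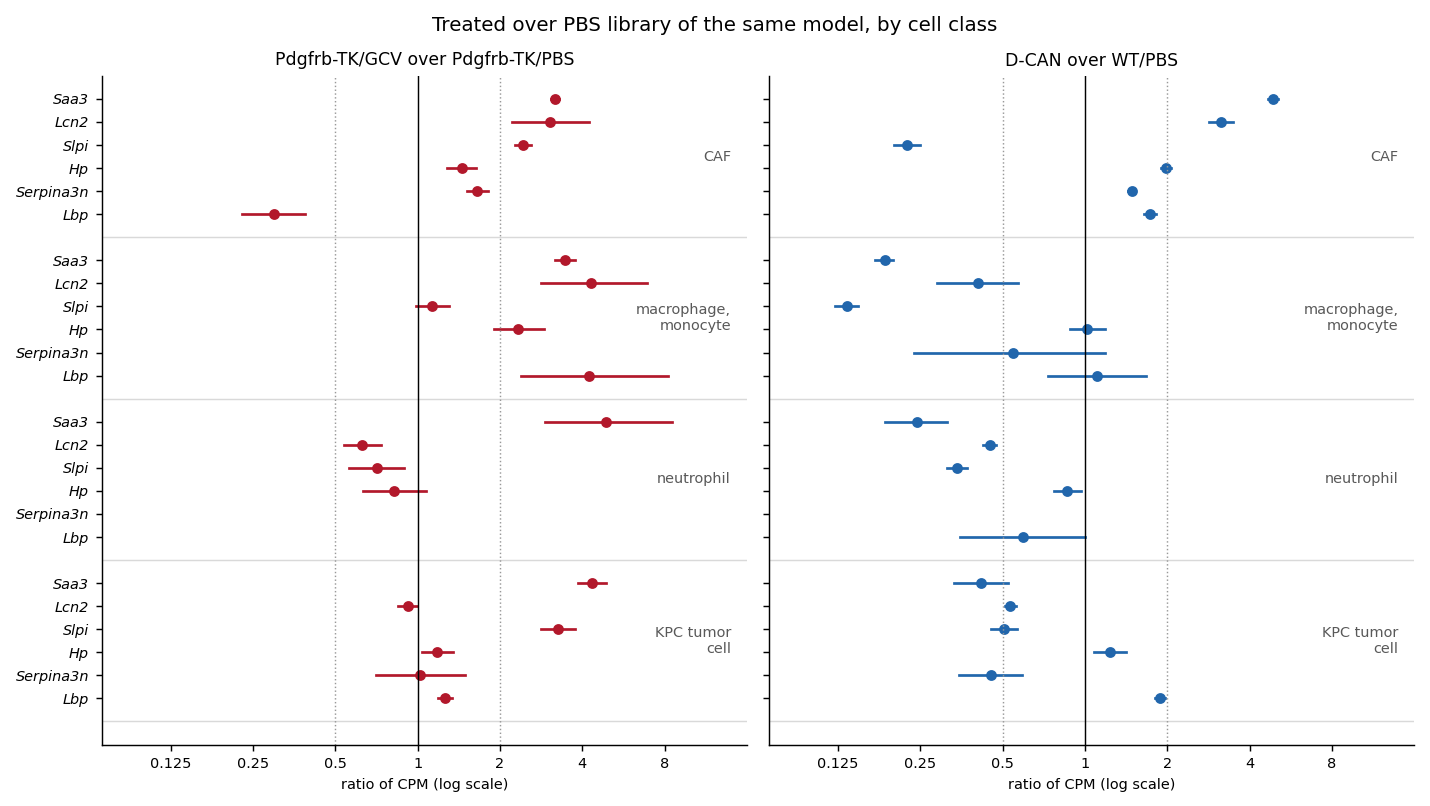
Ratio of CPM (log scale) of the treated library over the PBS library of its model for 6 acute phase genes in 4 cell classes, with exact conditional binomial intervals at 95%, dotted lines at a ratio of 0.5 and 2, and genes under 20 UMIs left out. Saa3 and Lcn2 lie above 2 in CAFs on both sides. In macrophages they lie above 2 with GCV and below 0.5 with D-CAN.

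Hp was expressed in CAFs, neutrophils and macrophages. CAFs had 241 CPM with GCV against 167 in Pdgfrb-TK/PBS and 411 with D-CAN against 207 in WT/PBS, or 1.45 times (1.28 to 1.64) and 1.98 times (1.90 to 2.07). Neither value was stable, since the GCV ratio was 0.834 when classes were assigned by whole profile and the D-CAN ratio was 0.777 without the cells that had a mesothelial marker. Neutrophils had 254, 308, 501 and 580 CPM, with ratios of 0.823 (0.633 to 1.07) and 0.863 (0.773 to 0.964). Macrophages had 145 CPM in Pdgfrb-TK/GCV and 59.8 to 62.3 CPM in the other 3 libraries, which overlap in their intervals. The GCV ratio there was 2.33 (1.89 to 2.90), and no single cell held more than 25 of the 1603 UMIs.

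Serpina3n was the member most limited to CAFs, which held 73.8% of its UMIs with GCV against 77.1% in Pdgfrb-TK/PBS, and 92.5% with D-CAN against 85.6% in WT/PBS. The CAF level was 569, 344, 745 and 504 CPM, so both treated libraries were higher than their PBS library, by 1.65 times (1.52 to 1.80) and 1.48 times (1.44 to 1.52). Mesothelial cells had 302 CPM in D-CAN (24 cells), and 121 UMIs in the 16 of Pdgfrb-TK/GCV and 17 in the 19 of Pdgfrb-TK/PBS. ECs had 19.2, 22.3, 83.4 and 74.0 CPM, while macrophages, neutrophils and tumor cells had at most 5.05 CPM. Transcripts of Serpina3n are 79.4% to 82.5% identical to those of 6 other Serpina3 genes, so a part of its UMIs may be shared with them.

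Tumor cells held the largest part of the Lbp UMIs, 80.5% with GCV against 82.7% in Pdgfrb-TK/PBS, and 54.1% with D-CAN against 43.0% in WT/PBS. Tumor cells had 32.9, 26.1, 64.8 and 34.4 CPM, or 1.26 times (1.19 to 1.33) and 1.89 times (1.81 to 1.97). CAFs had 27.5 CPM in Pdgfrb-TK/GCV against 92.2 in Pdgfrb-TK/PBS, a ratio of 0.298 (0.227 to 0.388), and 284 in D-CAN against 164 in WT/PBS, a ratio of 1.72 (1.64 to 1.81). Lbp was thus the 1 member with enough UMIs that was lower in CAFs after GCV. ECs had 120 CPM with D-CAN against 60.4 in WT/PBS, a ratio of 1.99 (1.55 to 2.54). Macrophages had 33.6 CPM in Pdgfrb-TK/GCV and 7.82 to 8.66 CPM in the other 3 libraries. The GCV ratio there was 4.22 (2.39 to 8.24), from 370 and 12 UMIs. T cells stood at 7.74 CPM with GCV and at 7.82 with D-CAN, where macrophages had 8.66. The part of free RNA in these levels was not tested.

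Saa1 and Saa2, the liver forms, were nearly absent. Saa1 had 28 UMIs with GCV against 0 in Pdgfrb-TK/PBS, and 134 with D-CAN against 276 in WT/PBS, and Saa2 had 4, 0, 11 and 77. In WT/PBS, 113 of the Saa1 UMIs lay in macrophages and 111 in CAFs, while D-CAN had 0 in macrophages, which allows up to 0.509 CPM, and 124 in CAFs, or 10.8 CPM against 5.63 in WT/PBS. Saa2 in CAFs had 0.609 CPM with D-CAN against 2.23 in WT/PBS, from 7 and 44 UMIs, and the ratio of 0.273 became 3.43 without the 5 richest cells of each library. Transcripts of both genes are 94.4% identical, so their UMIs cannot be divided with certainty, whereas Saa3 is 67.5% and 64.2% identical to them.

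**Figure D4:**
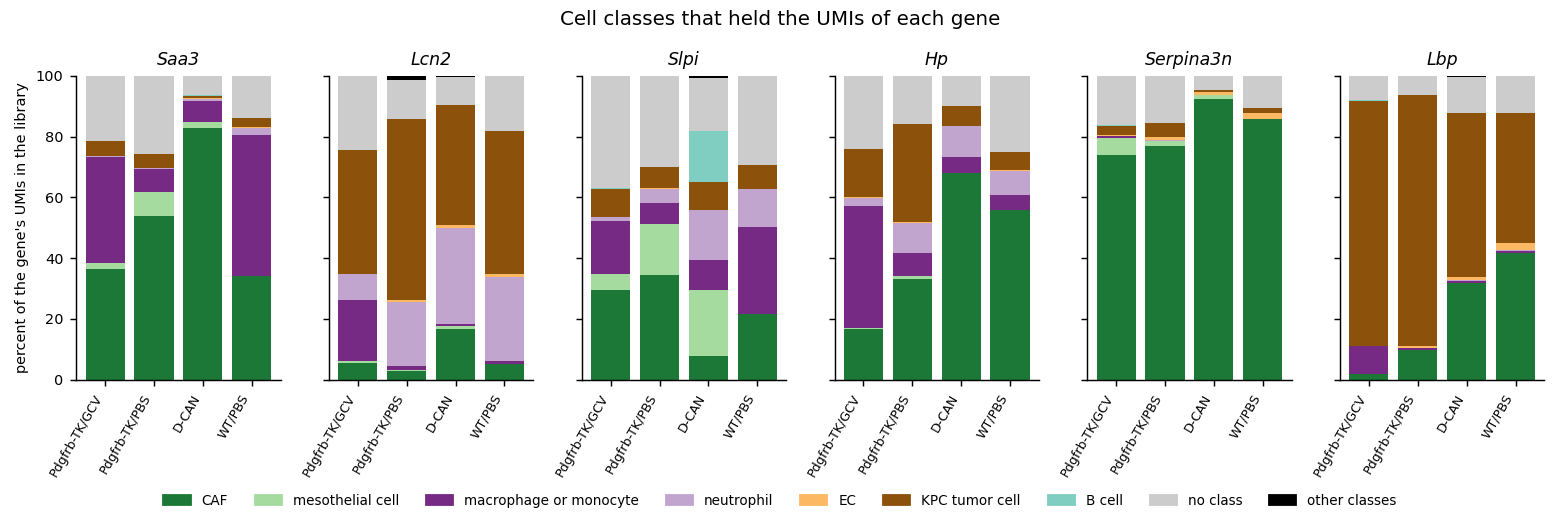
Percent of the UMIs of each gene that lay in each cell class, by library. CAFs hold 73.8% to 92.5% of Serpina3n, tumor cells 43.0% to 82.7% of Lbp, and Saa3 shifts from CAFs (82.7% in D-CAN) to macrophages (46.5% in WT/PBS). Cells with no class hold 6.34% to 25.8% of Saa3.

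A member was counted as past the threshold when it had at least 20 UMIs over both libraries and differed more than 2-fold. In CAFs after GCV, 3 of the 8 members were higher (Saa3, Lcn2 and Slpi) and 1 lower (Lbp), where 3.37% and 7.66% of 11325 genes were past it in these directions. In macrophages after GCV, 4 were higher (Saa3, Lcn2, Hp and Lbp) and 0 lower, where 8.93% and 4.16% of 12504 genes were. In tumor cells, 2 were higher (Saa3 and Slpi) against 14.6% of 17402 genes, with 0 lower against 3.47%. With GCV, Saa3 in tumor cells was not above the T cell level of free RNA in CPM. In neutrophils 1 was higher (Saa3, from 102 and 18 UMIs) against 6.24% of 4757 genes, with 0 lower against 4.52%. These shares count genes with at least 20 UMIs, which 6 members had in CAFs and tumor cells, 5 in macrophages and 4 in neutrophils. The median log2 ratio of those members was 1.004 in CAFs, 1.79 in macrophages, 0.29 in tumor cells and -0.39 in neutrophils, beside -0.14, -0.04, 0.16 and 0.05 over all genes.

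In the wild-type pair, Saa3 and Lcn2 lay past the threshold in opposite directions in CAFs and in macrophages, while Slpi and Saa2 were lower in both. In CAFs after D-CAN, 2 members were higher (Saa3 and Lcn2) and 2 lower (Slpi and Saa2), where 16% and 11.5% of 15183 genes were past the threshold. In macrophages, 0 members were higher and 5 lower (Saa1, Saa2, Saa3, Lcn2 and Slpi), where 18.1% and 5.45% of 12348 genes were. In neutrophils, 0 were higher and 3 lower (Saa3, Lcn2 and Slpi) against 14.4% and 11.1% of 8297 genes. In tumor cells 0 were higher and 2 lower (Saa3 and Serpina3n) against 15.7% and 9.25% of 17793 genes. Serpina3n in D-CAN tumor cells was at 0.973 CPM, below the 3.13 CPM of D-CAN T cells. In neither library of this pair was Saa3 in tumor cells above the T cell level of free RNA in CPM. The median log2 ratio of the members with enough UMIs was 0.86 in CAFs, -1.30 in macrophages, -1.16 in neutrophils and -0.94 in tumor cells, beside 0.13, 0.28, 0.04 and 0.15 over all genes. The macrophage median leaves out Saa1, which had 0 UMIs in D-CAN against 113 in WT/PBS and so no log2 ratio. Over genes high in both libraries, the median log2 ratio was 0.17, 0.23, -0.02 and 0.18 in the same order, and -0.12, -0.09, 0.0032 and 0.11 in the GCV pair. Against Pdgfrb-TK/PBS as control, Saa3, Lcn2 and Slpi were higher in D-CAN neutrophils (1.25, 1.51 and 1.32 times), and Saa3 was lower in D-CAN CAFs.

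Within the CAF class, cells were divided by whether they had more markers of the inflammatory program (iCAF: Clec3b, Pi16, Dpt, Il6, Cxcl12, Ly6c1, Has1 and Efemp1) or of the myofibroblastic one (myCAF: Acta2, Tagln, Cthrc1, Thbs2, Postn, Tnc, Col12a1 and Col8a1), with cells of at least 2 mesothelial markers set apart. The iCAF-program cells numbered 44 of 240 with GCV against 89 of 452 in Pdgfrb-TK/PBS, and 486 of 1188 with D-CAN against 86 of 1865 in WT/PBS. Their Saa3 level was 12969, 2853, 1357 and 275 CPM, and that of myCAF-program cells was 3310, 947, 446 and 87.7 CPM. Saa3 was therefore higher in the iCAF than in the myCAF program in all 4 libraries. Within each of these programs it was higher in both treated libraries, at 4.55 and 3.49 times with GCV and 4.93 and 5.08 times with D-CAN. CAFs with mesothelial markers had 6075, 3441, 1035 and 2030 CPM of Saa3 in the order of the libraries, above the iCAF program in both PBS libraries. In these cells the ratio was 1.77 (1.65 to 1.89) with GCV and 0.510 (0.454 to 0.571) with D-CAN, the latter from 30 cells in each library. Over all CAFs, the summed mesothelial markers were 192, 176, 179 and 60.8 CPM, with 7 of 7 markers present in each library. Without the cells with any of them, the Saa3 ratio was 8.05 with GCV and 6.40 with D-CAN.

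Slpi was higher in the iCAF than in the myCAF program in Pdgfrb-TK/GCV and both PBS libraries, and nearly level between these programs with D-CAN. In the iCAF program it had 2346 CPM with GCV against 604 in Pdgfrb-TK/PBS and 27.7 with D-CAN against 330 in WT/PBS, and in the myCAF program 526, 320, 25.5 and 130 CPM in the same order. The GCV ratio was 3.88 (3.37 to 4.49) in the iCAF program and 1.64 (1.46 to 1.85) in the myCAF program, the latter under the 2-fold threshold. The D-CAN ratio was 0.0841 (0.0675 to 0.104) in the iCAF program and 0.197 (0.165 to 0.233) in the myCAF program. CAFs with mesothelial markers had 1974, 944, 163 and 430 CPM of Slpi in the same order, above the iCAF program in all libraries but Pdgfrb-TK/GCV. Lcn2 after D-CAN was 1.62 times (1.31 to 2.03) WT/PBS in the iCAF program and 0.796 times (0.649 to 0.970) in the myCAF program, both nearer to 1 than the 3.14 times of all CAFs. After GCV it was 1.51 times (0.743 to 3.12) in the iCAF program and 6.22 times (3.93 to 10.3) in the myCAF program.

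Hp, Serpina3n and Lbp were also higher in the iCAF program in every library, and for them the comparison of all CAFs and the comparison within programs differed after D-CAN. Hp stood at 1803 CPM in the iCAF program of WT/PBS against 785 in D-CAN, a ratio of 0.435 (0.409 to 0.464), and at 125 against 136 CPM in the myCAF program, a ratio of 1.08 (0.995 to 1.17). Serpina3n was at 0.628 times (0.595 to 0.663) in the iCAF program and 0.740 times (0.702 to 0.780) in the myCAF program, although 1.48 times over all CAFs. Lbp was at 0.533 times (0.484 to 0.588) and 1.66 times (1.55 to 1.77). The share of iCAF-program cells among CAFs was 40.9% with D-CAN against 4.61% in WT/PBS.

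**Figure D5:**
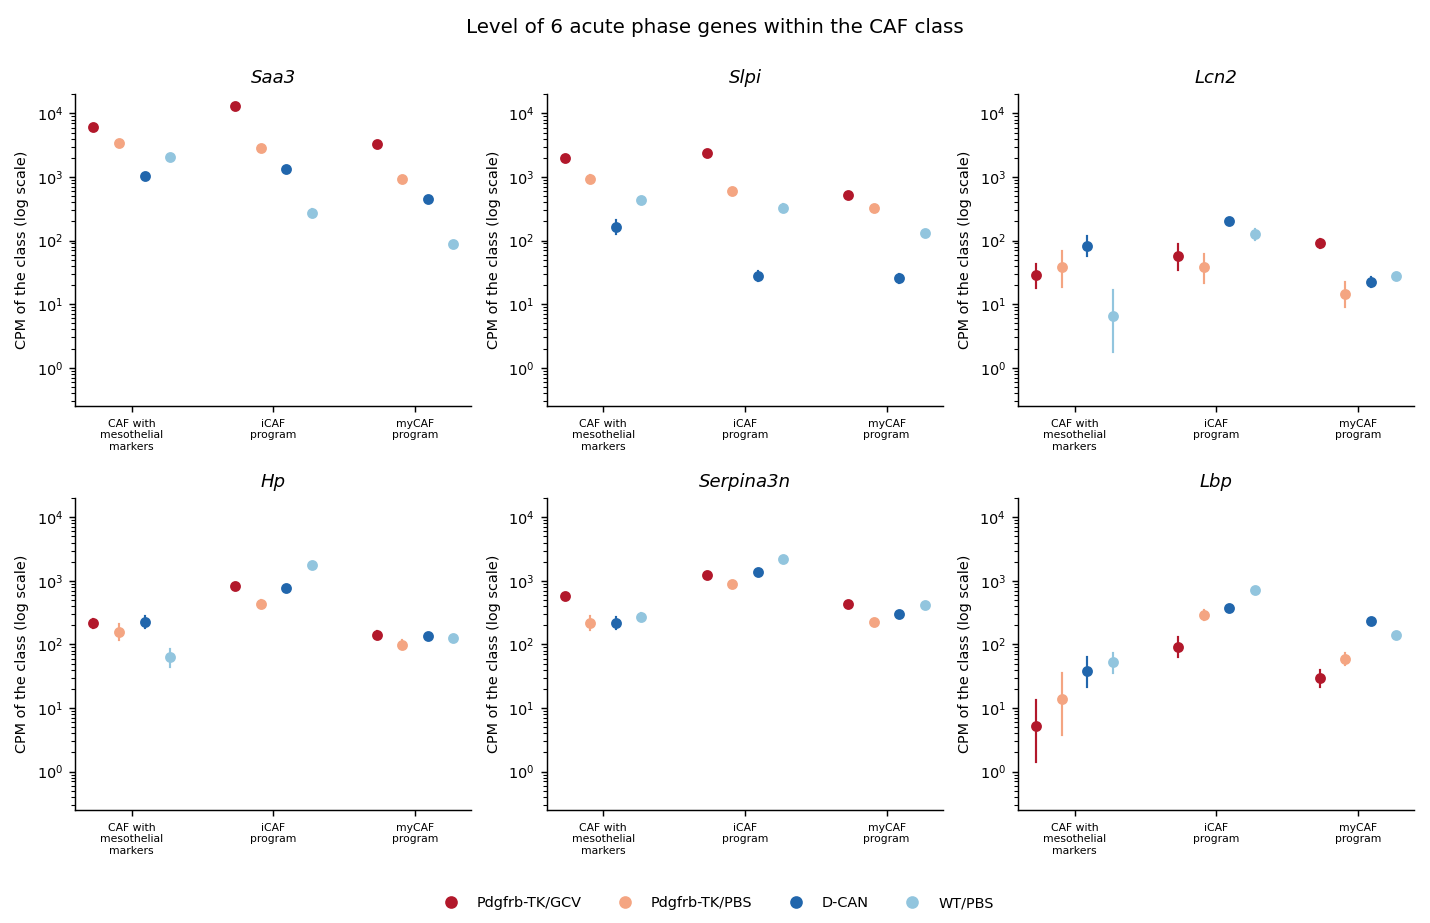
Level of 6 acute phase genes (CPM, log scale) in CAFs with mesothelial markers, iCAF-program CAFs and myCAF-program CAFs of each library, with exact Poisson intervals at 95%. Saa3 in the iCAF program runs from 275 CPM in WT/PBS to 12969 CPM in Pdgfrb-TK/GCV, while Hp and Serpina3n in that program are highest in WT/PBS.

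In all 4 libraries, CAFs with a Saa3 UMI had Slpi and Lcn2 more often than CAFs without one. For Slpi the shares with and without Saa3 were 75.0% and 26.1% with GCV, 51.0% and 10.3% in its control, 11.1% and 6.41% with D-CAN, and 36.4% and 13.2% in its control. For Lcn2 they were 31.6% and 13.6%, 15.2% and 4.98%, 44.1% and 12.9%, and 18.4% and 8.07% in the same order. These cells were not thinned, and deeper cells have more chance of both UMIs. CAFs holding 50% of the Saa3 UMIs had a median of 14913 UMIs against 10389 in the rest in Pdgfrb-TK/GCV (15 of 240 cells), and 17308 against 7491 in D-CAN (18 of 1188 cells). Over the 31 sums of a class and library with at least 20 cells, which share libraries and depth, the correlation of log2(CPM + 1) was 0.67 between Saa3 and Slpi, 0.67 between Hp and Lcn2, 0.50 between Lcn2 and Slpi and 0.36 between Saa3 and Lcn2.

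Among the 8300 genes with at least 50 CPM in 1 of these sums, the genes most like Saa3 were Serpinb2 (0.83), a plasminogen activator inhibitor, then Slc7a8, Trem2, Ccl24 and Tmem119 (0.77 to 0.80), with 4 of the 5 also among the first 5 by rank correlation. Those most like Lcn2 were Etf1 (0.83), Ier3, Hdc, Chil1 and Ddit3 (0.79 to 0.82), and 3 of these were shared by both measures. Hdc makes histamine and is one of the markers used here for neutrophils. Those most like Slpi were Atp6v0d1 (0.78), 1700017B05Rik, Fth1, Dnajb9 and Serpinb2 (0.72 to 0.76), and 2 were shared.

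Cytokines and factors that act upstream of acute phase genes were read from a list of 22. The shares of all genes past the threshold, higher and then lower, stand in parentheses beside the counts of this and the next lists. The CAF ratios of these lists are over all CAFs and were not read within the iCAF and myCAF programs. The iCAF-program share of CAFs was 40.9% with D-CAN and 4.61% in WT/PBS. In CAFs after GCV, 4 were more than 2-fold higher and 1 lower, of 19 with at least 20 UMIs (all genes 3.37% and 7.66%). Il6, the main inducer and also one of the iCAF markers used here, had 90.7 CPM against 11.9, a ratio of 7.60 (5.17 to 11.6). The NF-κB inhibitor and target Nfkbia was at 2.52 times (2.14 to 2.98) and the factor Cebpb at 2.06 times (1.86 to 2.28). In macrophages after GCV 4 of 20 were higher and 0 lower (all genes 8.93% and 4.16%), among them Il6 at 2.66 times and Il1a at 2.32 times. After D-CAN, the counts in CAFs were 2 higher and 4 lower of 21 (all genes 16% and 11.5%), with the shared receptor chain Il6st at 2.12 times and the LIF receptor Lifr at 2.01 times. In D-CAN macrophages 0 were higher and 5 lower of 21 (all genes 18.1% and 5.45%), with Il6 at 0.423 times, Il1a at 0.499 times and the IL1 receptor antagonist Il1rn at 0.254 times. In D-CAN neutrophils 5 were higher and 3 lower of 19 (all genes 14.4% and 11.1%), led by Osm at 4.28 times, Il1b at 3.60 times (4277 against 1188 CPM), Il1a at 3.001 times and the STAT3 target Socs3 at 2.18 times. In neutrophils after GCV 1 of 15 was higher (all genes 6.24%), the IL6 receptor Il6ra at 2.27 times. In tumor cells the counts were 6 higher and 0 lower of 22 after GCV (all genes 14.6% and 3.47%) and 0 and 2 of 22 after D-CAN (all genes 15.7% and 9.25%).

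Of 29 other acute phase proteins, 28 were among the measured genes. In D-CAN CAFs 7 were higher and 4 lower of 17 with enough UMIs, where 16% and 11.5% of all genes were. The complement component C3 had 4672 CPM against 244 in WT/PBS, a ratio of 19.1 (18.6 to 19.7), and the protease trap A2m was at 17.9 times (14.6 to 22.0). The metalloreductase Steap4 was at 5.11 times and the complement factor Cfb at 3.79 times, while Serpina3g was at 0.393 times. These ratios are over all CAFs, whose iCAF-program share differed between the libraries, and the part of that difference was not tested. In D-CAN tumor cells 7 were higher and 2 lower of 18 (all genes 15.7% and 9.25%), with transferrin (Trf) at 6.89 times (498 against 72.3 CPM), C3 at 5.53 times and ceruloplasmin (Cp) at 2.50 times. In D-CAN macrophages 4 were higher and 3 lower of 13 (all genes 18.1% and 5.45%), with Cfb at 2.02 times. In D-CAN neutrophils 1 was higher (Steap4, 81 against 5 UMIs) and 1 lower of 9, where 14.4% and 11.1% of all genes were.

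After GCV, the lower genes of this list included Rbp4 in CAFs and macrophages and Ttr in tumor cells and neutrophils. CAFs had 1 higher and 3 lower of 13 (all genes 3.37% and 7.66%), with the retinol carrier Rbp4 at 0.405 times. Macrophages had 1 higher and 2 lower of 9 (all genes 8.93% and 4.16%), with Rbp4 at 0.399 times and Lrg1 at 2.08 times. Transthyretin (Ttr) was at 0.215 times in tumor cells (49.4 against 229 CPM), where 0 of 13 were higher and 2 lower (all genes 14.6% and 3.47%). In neutrophils Ttr was at 0.0505 times from 3 and 51 UMIs, and 0 of 6 were higher and 1 lower there (all genes 6.24% and 4.52%). The 7 hepatocyte markers, Ttr among them, summed to 141 CPM in neutrophils and 105 in B cells of Pdgfrb-TK/PBS. With GCV they summed to 10.8 CPM in each of these classes. The part of free RNA in the neutrophil ratio was not tested.

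The last list held 21 receptors, partners and target proteases of the members. In D-CAN macrophages 0 were higher and 6 lower of 15 (all genes 18.1% and 5.45%), among them Cd14, the receptor to which Lbp passes lipopolysaccharide, at 607 CPM against 2103, a ratio of 0.289 (0.278 to 0.2996). Tlr2 was at 0.468 times, Cd36 at 0.416 times and P2rx7 at 0.276 times. In macrophages after GCV 2 were higher and 2 lower of 14 (all genes 8.93% and 4.16%), with the haptoglobin receptor Cd163 at 0.188 times (0.143 to 0.246) and the protease Prtn3 at 3.15 times (2.48 to 4.06). The proteases Elane (neutrophil elastase), Ctsg (cathepsin G) and Prtn3 were lower in D-CAN neutrophils, as was Slpi, the inhibitor of elastase and cathepsin G. Elane had 7 UMIs against 337, a ratio of 0.0148, Ctsg 0 against 82, and Prtn3 54 against 558, a ratio of 0.0691. P2rx7 was at 4.07 times there, and 2 were higher and 4 lower of 14 (all genes 14.4% and 11.1%). After GCV the counts were 0 and 0 of 9 in neutrophils (all genes 6.24% and 4.52%), 0 and 0 of 10 in CAFs (3.37% and 7.66%), and 7 higher and 1 lower of 18 in tumor cells (14.6% and 3.47%). After D-CAN they were 2 higher and 4 lower of 14 in CAFs (16% and 11.5%), with Plscr1 at 0.370 times, and 0 higher and 8 lower of 19 in tumor cells (15.7% and 9.25%).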

How the data were processed

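Single-cell RNA of pooled tumor suspensions was captured with a droplet method that counts UMIs at the 3′ end. The UMI counts per gene and cell were deposited by the authors as unnormalized matrices, made with Cell Ranger (7.0.0 in the matrix headers, while the study's methods name another version), STAR 2.6 and mm10, with empty droplets removed.

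Cells with at least 200 genes were kept, 10178 to 12280 per library. A cell was given a class when at least 3 markers of it had a UMI and the share of markers found in any other class stayed under 0.67 of that share, which also sets aside cells with markers of a pair of classes. The CAF and mesothelial lists did not exclude each other, and reporter features of 2 libraries were left out. No doublet caller was run. Class names rest on these markers alone and were rebuilt here. Counts were summed over a class and library and given as CPM, with levels printed only for classes of at least 20 cells. Intervals are exact Poisson for CPM, exact Clopper-Pearson for shares and exact conditional binomial for ratios. Shares of cells with a UMI were compared after thinning each cell to 2000 UMIs, leaving out shallower cells. A count of 0 was taken to allow up to 3 counts. With 1 library per condition no test was made, and a gene was counted as higher or lower when it had at least 20 UMIs over both libraries and differed more than 2-fold.

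Named genes were the 8 members in every class, the genes of 3 pathway lists with at least 50 CPM in the higher library that passed this threshold, and the 5 genes most correlated with each of Saa3, Lcn2 and Slpi. The members and lists were chosen with earlier results of these data known. Alternatives covered the cell filters, scale, class assignment, control library, thinning and thresholds, and 3 were chosen after seeing the data (cells with mesothelial markers left out, the 5 richest cells left out, and the T cell level subtracted). The calculation of the ratios was checked on CAF sums simulated with counting error only. That check does not cover the spread between cells or between libraries. Python 3.11.15 with numpy 2.4.6, scipy 1.17.1 and pandas 2.3.3 was used.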

Additional observations from a re-analysis of the deposited data

Results flagged for a closer look

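In 5 cases a member lay past the 2-fold threshold in opposite directions in the 2 models. Each side compares 1 library with 1 library, and the difference between the models was not tested. Saa3 in KPC tumor cells was at 4.33 times its PBS library with GCV and at 0.418 times with D-CAN. In the libraries with at least 20 T cells, the tumor cell level of Saa3 was not above the T cell level of free RNA in CPM. Slpi in CAFs was at 2.43 times and 0.224 times. In macrophages or monocytes Saa3 was at 3.45 times and 0.185 times, and Lcn2 at 4.30 times and 0.407 times. Saa3 in neutrophils was at 4.86 times and 0.243 times, the first from 18 UMIs in Pdgfrb-TK/PBS, and the part of free RNA was not tested. The PBS libraries also differed from each other for these genes, with Pdgfrb-TK/PBS at 1.56, 3.41, 0.527, 0.699 and 0.194 times WT/PBS in the same order.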

How the results depend on the processing

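No paired analysis was possible because each condition had 1 library and the labels give no replicate numbers. Of 26 ratios past 2-fold, 26 kept their direction and 26 stayed past it with at least 500 genes per cell, with at most 20% mitochondrial UMIs, with a mean over cells, without mitochondrial genes in the total and without the 5% of cells with most UMIs. Past 2-fold were 25 of 26 on a median of ratios scale, 25 with at least 5 markers and 24 with classes by profile. Without cells with a mesothelial marker, 8 of 8 CAF ratios stayed past it. The T cell level could be subtracted only in the D-CAN pair, since Pdgfrb-TK/PBS had 14 T cells. Ratios with a level at or below that of T cells dropped out, as for Saa3 and Serpina3n in tumor cells. Of the 12 ratios left, 11 stayed past 2-fold, and this setting does not cover the GCV ratios. The level subtracted in WT/PBS came from 35 T cells with 2 Saa3, 1 Lcn2 and 3 Slpi UMIs, so it was poorly measured. The control mattered most: against the other PBS library, 18 of 24 kept their direction and 14 of 24 stayed past 2-fold. The reversed ratios were Saa3 in neutrophils with GCV (0.943), Serpina3n in tumor cells with D-CAN (1.40), Saa3 in CAFs with D-CAN (0.475), and Saa3 (1.25), Lcn2 (1.51) and Slpi (1.32) in neutrophils with D-CAN. Without the 5 richest cells, Saa2 in CAFs with D-CAN reversed (3.43), while 24 of 25 kept their direction and 23 stayed past 2-fold. The counts of members past the threshold given next join both directions, and the shares over all genes were not computed for these settings. With the other control, the count became 7 in macrophages and 3 in neutrophils with GCV (from 4 and 1). With D-CAN it became 7 in CAFs, 1 in macrophages and 0 in neutrophils (from 4, 5 and 3). The direction changed in neutrophils with GCV, from Saa3 higher to Hp (0.437), Lcn2 (0.187) and Slpi (0.183) lower. In macrophages with GCV, Lcn2 was at 3.01 times, Saa3 at 1.82 and Slpi at 0.287. At a threshold of 1.5 the count of members became 2 in neutrophils with GCV, and 5 in tumor cells and 7 in CAFs with D-CAN. In tumor cells with D-CAN, where it was 2, it became 4 on the median of ratios scale and with a mean over cells. It was also 4 without the 5% of cells with most UMIs, and 1 with at least 5 markers. After the T cell level was subtracted, the 1 member still counted was Serpina3n. Its D-CAN level in tumor cells, 0.973 CPM, was below the 3.13 CPM of T cells. The subtracted level was therefore negative, and this count does not hold. The cause of these shifts was not tested. Levels from few UMIs, as for Saa1 and Saa2, are limited by depth, and animals within a pool cannot be told apart.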
